A study of Mus musculus with 32 samples.

Results

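The response to 2 h of lipopolysaccharide (LPS) was measured in bone marrow-derived dendritic cells that lack 2 immunoproteasome subunits, LMP7 (the product of Psmb8) and MECL1 (the product of Psmb10). The libraries are those labelled genotype Lmp7-/-Mecl1-/- (dKO), strain C57BL/6: 4 given 1 µg/mL LPS for 2 h, set against 4 with no LPS. The 4 WT libraries at 2 h and the 4 WT libraries with no LPS, of the same strain, serve for the comparison of genotypes and the check of the deleted genes. With the WT libraries at 1 h and 6 h, they also serve to judge the time of each dKO library. All of them enter the fit of all 32 libraries. Together the dKO groups make 8 of the 32 libraries in the series. Every dKO library, with or without LPS, carries both deletions, so the effect of LPS is measured inside the deficient genotype. Marrow from femur and tibia was grown with GM-CSF and harvested at day 9, and total RNA was sequenced. Whether replicates stem from separate mice or cultures is not labelled, so a p-value here sets a change against variation among libraries that could be technical.

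LPS is a cell-wall component of Gram-negative bacteria that is sensed by TLR4 with its co-receptors CD14 and MD-2. One arm of the receptor's signalling, through MyD88, activates NF-κB and MAP kinases and drives inflammatory cytokine genes. The other arm, through TRIF, activates IRF3 and induces interferon-β, which then acts through its receptor to induce interferon-stimulated genes. Dendritic cells that have sensed LPS mature: they raise costimulatory molecules, change chemokine receptors and present antigen to T cells. The immunoproteasome is a form of the proteasome with alternative catalytic subunits that is abundant in such cells and shapes the peptides loaded on MHC class I.

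Values are RPKM (reads per kilobase of gene, scaled to library size) as the authors deposited them. A gene was tested where it reached an RPKM of 1 in at least 4 of the 8 dKO libraries, which left 10442 of 22216 genes. Changes are differences in log2(RPKM + 0.5), which understate the change of genes near 0. A gene was called where limma's adjusted p fell below 0.05.

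The proximal promoters of 4 of the most induced genes are shown because they hold the letters of elements known to bind NF-κB or interferon-activated factors. They are the 250 bases upstream of the annotated start in RefSeq on build GRCm38.p6, printed 5′ to 3′ on the gene's own strand: Ifnb1 at chr4:88522795-88523044 (minus strand), Cxcl10 at chr5:92348890-92349139 (minus strand), Rsad2 at chr12:26456453-26456702 (minus strand) and Il6 at chr5:30012864-30013113 (plus strand). Capitals mark GGGANNTTCC, a form of the κB element, and GAAANNGAAA, the core of the interferon-stimulated response element, searched on both strands. The search was over letters alone and shows no binding. Forms of these elements with other letters or spacing were not searched, so an unmarked stretch may still hold one.
Ifnb1: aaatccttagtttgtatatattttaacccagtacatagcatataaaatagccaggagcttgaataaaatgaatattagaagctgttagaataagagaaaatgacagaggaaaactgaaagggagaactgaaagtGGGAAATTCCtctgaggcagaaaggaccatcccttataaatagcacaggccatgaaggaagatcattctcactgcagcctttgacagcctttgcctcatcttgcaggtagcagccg
Cxcl10: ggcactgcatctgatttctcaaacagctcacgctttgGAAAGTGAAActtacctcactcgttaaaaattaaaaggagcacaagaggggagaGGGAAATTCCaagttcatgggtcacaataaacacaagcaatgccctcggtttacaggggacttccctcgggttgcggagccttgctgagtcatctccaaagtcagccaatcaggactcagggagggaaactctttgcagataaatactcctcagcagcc
Rsad2: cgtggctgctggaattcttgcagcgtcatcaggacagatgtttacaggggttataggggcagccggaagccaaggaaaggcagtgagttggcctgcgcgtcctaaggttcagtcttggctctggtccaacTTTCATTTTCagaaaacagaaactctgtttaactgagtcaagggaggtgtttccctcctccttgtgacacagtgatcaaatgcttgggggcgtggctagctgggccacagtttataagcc
Il6: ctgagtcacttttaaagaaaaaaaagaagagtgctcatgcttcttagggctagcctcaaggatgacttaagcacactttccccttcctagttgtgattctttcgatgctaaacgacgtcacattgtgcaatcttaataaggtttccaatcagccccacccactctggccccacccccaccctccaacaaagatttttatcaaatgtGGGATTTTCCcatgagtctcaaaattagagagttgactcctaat

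Ifnb1 and Il6 hold 1 κB match each, Rsad2 holds 1 match to the response element, here on the opposite strand, and Cxcl10 holds both. The promoters of Il12b and Tnfsf15, the other genes among the 6 with the largest changes, held neither set of letters in this window. Of the 27025 promoters of that length in the table, 3.46% held GAAANNGAAA and 1.36% held GGGANNTTCC. Only 55 of the 78 genes with a called rise of at least 4 log2 units had an entry, 70.5%, so no share is given for them.

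In 3 of these 8 libraries the profile went against the labelled time. Each library was set against the means of the WT libraries at 0, 1, 2 and 6 h by Pearson's r of log2(RPKM + 0.5) across the tested genes. The dKO 2 h LPS libraries 1 and 3 were nearest to WT at 2 h (r = 0.978 and 0.982), and dKO no LPS libraries 1, 3 and 4 were nearest to WT without LPS (r = 0.976, 0.975 and 0.971). The library labelled dKO 2 h LPS replicate 2 was nearest to WT without LPS (r = 0.969), and the one labelled dKO 2 h LPS replicate 4 was nearest to WT at 6 h (r = 0.968). The library labelled dKO no LPS replicate 2 was nearest to WT at 1 h (r = 0.973). Psmb8 and Psmb10 were low in all 8, as the genotype states: Psmb8 had 4.61 to 7.42 RPKM in dKO 2 h libraries and 3.63 to 4.32 RPKM in dKO no LPS libraries, against 170.6 RPKM or more in WT libraries of those times. Psmb10 had 5.01 to 13.8 RPKM in dKO 2 h libraries and 2.37 to 7.69 RPKM in dKO no LPS libraries, against 48.5 RPKM or more in those WT libraries. The summed aligned bases, the measure of depth, were 1.44 to 1.69 Gb in dKO 2 h libraries and 1.42 to 1.84 Gb in dKO no LPS libraries.

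**Figure D1:**
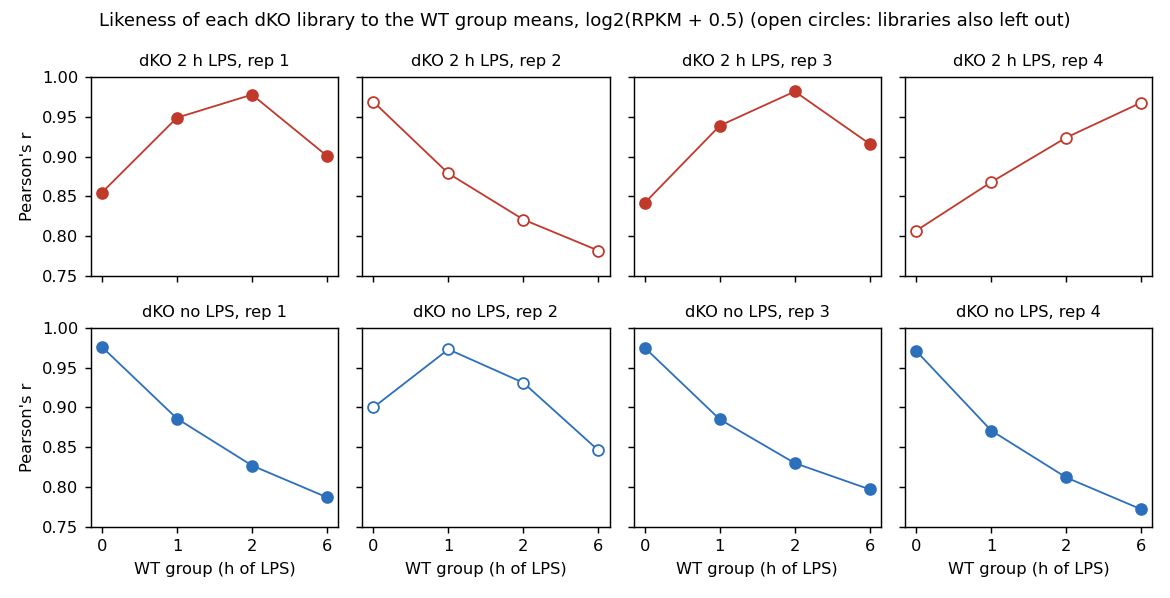
Pearson's r (vertical axis) of each dKO library with the mean of each WT group, by hours of LPS in WT (horizontal axis), over the tested genes. Open circles mark the 3 libraries also left out, whose highest r lies at 0 h (2 h LPS replicate 2), 6 h (2 h LPS replicate 4) and 1 h (no LPS replicate 2).

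Results are therefore given as labelled and without those 3 libraries, which leaves 2 libraries at 2 h and 3 without LPS. The 3 were left out for their expression profile, so the smaller comparison was chosen by what it measures. Its p-values describe the spread among the 5 libraries kept and are not independent evidence that LPS acted.

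As labelled, 4 against 4, no gene was called (0%): the smallest adjusted p was 0.181, and 2855 genes (27.3%) had an unadjusted p below 0.05. The values of single genes show the spread behind this. Tnf, the gene of tumour necrosis factor, had 3917, 20.5, 3386 and 972 RPKM in dKO 2 h libraries 1 to 4, against 18.5, 6060, 18.3 and 14.8 RPKM in dKO no LPS libraries 1 to 4. The highest of the 8 values lies in a library labelled no LPS, and the 2 h library 2 lies with the unstimulated ones. Il6, the gene of interleukin 6, had 1641, 1.67, 1572 and 1154 RPKM at 2 h, against 2.04, 1124, 0.836 and 2.03 RPKM with no LPS. Its labelled groups overlap in the same 2 libraries. The labelled log2 changes were 3.25 ± 2.19 for Tnf and 4.84 ± 2.61 for Il6 (± SE), with adjusted p = 0.268 and 0.202.

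Only 79 genes (0.757%) had all 4 labelled 2 h values above all 4 labelled no LPS values, and 159 (1.52%) had all of them below. In one fit of the 8 group means of all 32 libraries, which shares 1 estimate of spread, the labelled contrast called 920 genes higher (8.81%) and 5859 lower (56.1%). That estimate is shared with the tighter WT groups and understates the spread of the labelled dKO groups, so its p-values are too small for them. Leaving out 1 library, dKO 2 h replicate 2, gave 788 higher and 5366 lower calls in the 8-library comparison, and leaving out any other gave none (0). Of the calls in the fit of 32 libraries, 6664 were also made in the same direction without the 3 libraries.

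Without the 3 libraries, 1275 genes were called higher at 2 h (12.2%) and 7674 lower (73.5%). The median log2 change of all tested genes was -0.80 on the RPKM scale. Genes called higher took 39.1% and 40.7% of all RPKM in dKO 2 h libraries 1 and 3, against 11.5%, 11.8% and 10.9% in dKO no LPS libraries 1, 3 and 4. They were chosen for being higher in those same 2 h libraries, so the direction of that contrast was fixed in advance. In the libraries left out, those genes took 11.5% in 2 h replicate 2, 41.1% in 2 h replicate 4 and 30.5% in no LPS replicate 2. After median-of-ratios scaling, which centres the typical gene, the median was -0.01, and 3627 genes were called higher (34.7%) and 3571 lower (34.2%). All 1275 higher calls remained, 3571 of the lower calls remained, and 1062 genes called lower in RPKM were called higher after scaling. RPKM values are shares of a library's reads. The 92 spike-in entries were not used to judge the scalings, so which zero is right was not tested. Lower calls are therefore named below as kept only where both scalings gave them.

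**Figure D2:**
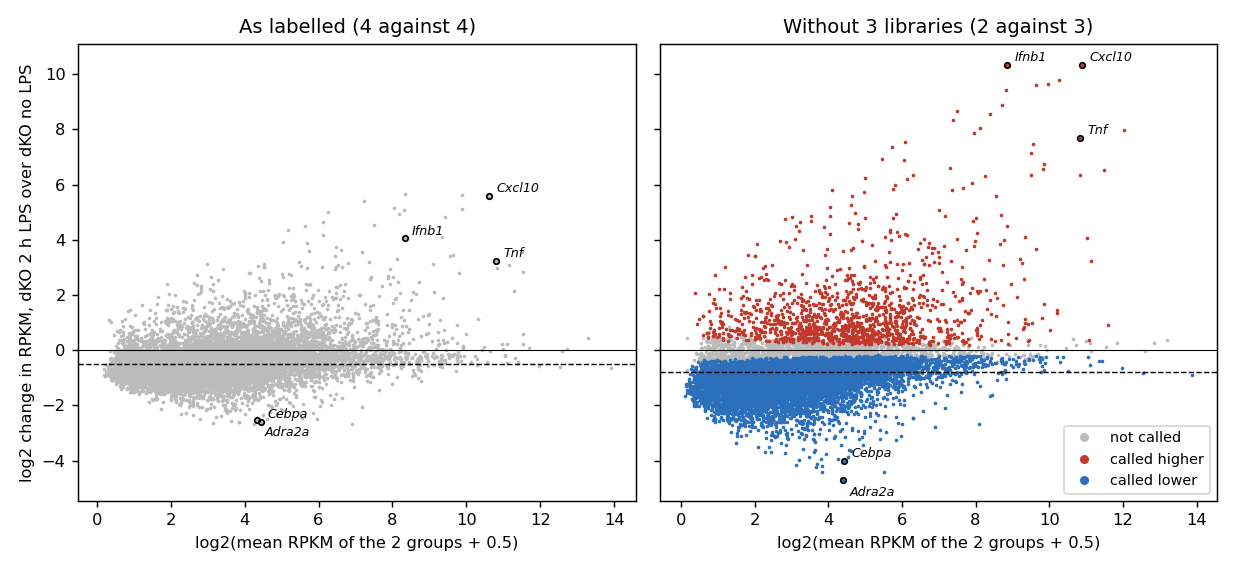
Log2 change in RPKM, dKO 2 h LPS over dKO no LPS (vertical axis), by mean level of the groups (horizontal axis, log2), for each tested gene as labelled (left) and without the 3 libraries (right). The dashed line is the median of all genes, -0.50 on the left and -0.80 on the right. No gene is called on the left, and Ifnb1 and Cxcl10 lie at 10.35 and 10.33 on the right.

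After that removal, 78 genes were called higher by at least 4 log2 units. The 10 highest, by the rule fixed for naming genes, were Ifnb1, Cxcl10, Rsad2, Il12b, Il6, Tnfsf15, Ifit1, Oasl1, Cmpk2 and Ptgs2, with log2 changes of 10.35 to 8.35. They encode interferon-β (Ifnb1), a chemokine that draws T cells (Cxcl10), interferon-induced antiviral proteins (Rsad2, Ifit1, Oasl1, Cmpk2), the p40 chain of interleukins 12 and 23 (Il12b), interleukin 6, a TNF-family ligand (Tnfsf15) and the inducible cyclooxygenase (Ptgs2). All 10 were also higher after median-of-ratios scaling.

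Most cytokine and chemokine genes tested rose. List counts here and below are to be read beside those of all tested genes. A gene below RPKM 1 in no LPS libraries 1, 3 and 4 could pass the filter only through the other libraries. The rise of such a gene was partly built in. Among the cytokine genes this holds for Il10, Csf3, Il23a and Il33, whose means in those 3 libraries were at most 0.2265 RPKM. Of all tested genes, 12.2% rose and 73.5% fell in RPKM, and 34.7% rose and 34.2% fell after scaling. Of 18 inflammatory cytokine genes tested, 15 rose and 1 fell, with a median log2 change of 3.37, and after scaling 16 rose and 1 fell. Il12b had 1712, 1.01, 2293 and 2778 RPKM in dKO 2 h libraries 1 to 4, against 3.08, 735, 0.889 and 2.55 RPKM in dKO no LPS libraries 1 to 4. The 2 h libraries 1, 3 and 4 were high, 2 h library 2 was low, and no LPS library 2 was high. With those 3 left out, Il12b averaged 2003 ± 411 RPKM at 2 h (SD, n = 2) and 2.17 ± 1.14 RPKM with no LPS (SD, n = 3), a log2 change of 9.64 ± 0.36 (SE; adjusted p = 3.9e-07). Tnf rose by 7.69, Il6 by 9.62, Il1b by 6.36 and Il23a, the second chain of interleukin 23, by 7.36 on the log2 scale. Il27, an interleukin 12 relative that restrains T cells, rose by 6.35, and Il1rn, the antagonist of the interleukin 1 receptor, by 3.67. The member that fell was Il16, a chemoattractant for CD4+ cells, with 0.626 and 0.442 RPKM in dKO 2 h libraries 1 and 3, against 9.60, 8.67 and 9.67 RPKM in dKO no LPS libraries 1, 3 and 4.

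Of 16 chemokine genes, 15 rose and 1 fell on the RPKM scale, with a median of 5.22, the highest of the lists; after scaling 15 rose and none fell (0). Cxcl10 had 3792, 2.51, 3785 and 3749 RPKM in dKO 2 h libraries 1 to 4, against 3.31, 1151, 1.69 and 2.54 RPKM in dKO no LPS libraries 1 to 4. Its value was nearly the same in 2 h libraries 1, 3 and 4. Ccl4, which draws macrophages and natural killer cells, rose by 7.98, Cxcl1, which draws neutrophils, by 8.06, and Ccl2, which draws monocytes, by 5.57. Ccl5, which draws T cells, had 3634 and 4227 RPKM in dKO 2 h libraries 1 and 3 and 14052 RPKM in the library labelled 2 h replicate 4. It stood at 213, 342 and 174 RPKM in dKO no LPS libraries 1, 3 and 4. Cxcl9 did not pass the filter and was not tested. Its mean was 13.7 RPKM in dKO 2 h libraries 1 and 3, and 0.0257 RPKM in dKO no LPS libraries 1, 3 and 4.

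Of 14 TNF-family ligands and receptors, 9 rose and 2 fell, and after scaling 12 rose and none fell (0). Tnfsf15 had 796, 0.635, 1002 and 337 RPKM in dKO 2 h libraries 1 to 4, against 1.02, 156, 0.602 and 0.83 RPKM in dKO no LPS libraries 1 to 4. Tnfsf9 and Tnfsf4, ligands of the T-cell receptors 4-1BB and OX40, rose by 4.86 and 5.07. Cd40, the receptor through which helper T cells act on dendritic cells, rose by 4.93. Among 7 chemokine receptor genes 2 rose and 4 fell, and after scaling 3 rose and 3 fell. Ccr7, which guides mature dendritic cells to lymph nodes, had 248, 80.1, 353 and 729 RPKM in dKO 2 h libraries 1 to 4, against 102, 274, 172 and 77.8 RPKM in dKO no LPS libraries 1 to 4. It rose by 1.41 ± 0.30 once the 3 were left out (adjusted p = 0.00218). Ccrl2, an atypical receptor that holds chemerin, rose by 5.88, and Ccr2, the receptor of CCL2, fell by 2.77 in RPKM and by 1.92 after scaling.

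**Figure D3:**
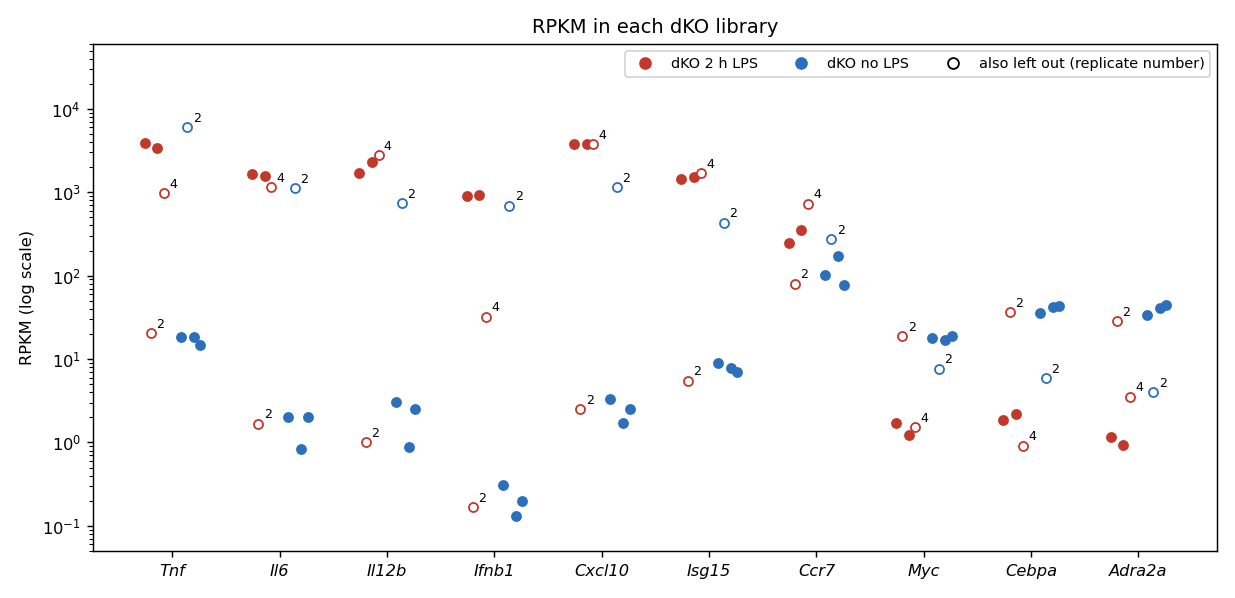
RPKM (log scale) of 10 genes in each of the 8 dKO libraries, 2 h LPS left of no LPS. Open circles carry the replicate numbers of the libraries also left out. For Tnf, Il6, Il12b, Ifnb1, Cxcl10 and Isg15 the filled groups lie apart, 2 h replicate 2 lies with the filled no LPS points and no LPS replicate 2 lies far above them. Myc, Cebpa and Adra2a run the other way.

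All 12 NF-κB genes tested rose in both scalings, with a median of 1.91. Nfkbiz, an atypical inhibitor that co-activates a set of late genes in macrophages, rose by 6.61, the most of the list. Nfkbia, the gene of IκBα that holds NF-κB in the cytoplasm, had 1087, 177, 1074 and 764 RPKM in dKO 2 h libraries 1 to 4, against 181, 1300, 226 and 148 RPKM in dKO no LPS libraries 1 to 4. Its highest value is in the library labelled no LPS replicate 2, as for Tnf. Nfkb1, the p105 and p50 subunit gene, rose by 2.09.

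Immediate-early genes went both ways: of 17, 7 rose and 7 fell, and after scaling 9 rose and 3 fell. Over all tested genes 12.2% rose and 73.5% fell in RPKM, so this list lay toward rising. Atf3, a repressor of cytokine genes, rose by 2.59 and Nr4a3, an orphan nuclear receptor, by 3.17. Myc, the growth regulator, had 1.71, 18.8, 1.24 and 1.52 RPKM in dKO 2 h libraries 1 to 4, against 18.1, 7.62, 16.8 and 19.1 RPKM in dKO no LPS libraries 1 to 4. It fell by 3.23 in RPKM and by 2.5 after scaling. Egr2, a zinc-finger factor, fell by 2.96 in RPKM and by 2.12 after scaling. Egr1 fell by 1.54 in RPKM but after scaling stood at -0.72 (adjusted p = 0.184). Fos was not called: it had 13.8 and 11.7 RPKM in dKO 2 h libraries 1 and 3, against 40.3, 17.3 and 15.5 RPKM in dKO no LPS libraries 1, 3 and 4, with a log2 change of -0.78 ± 0.35 in RPKM and 0.06 after scaling.

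Of 21 genes listed for feedback on inflammatory signalling, 15 rose and 4 fell, and after scaling 17 rose and 3 fell. Irg1, the enzyme that makes itaconate, rose by 6.58, Ptgs2 by 8.35 and Tnfaip3, the gene of the ubiquitin editor A20, by 4.25. Dusp6, a phosphatase of ERK, ran the other way, with 3.51 and 3.17 RPKM in dKO 2 h libraries 1 and 3, against 30.5, 29.3 and 25.1 RPKM in dKO no LPS libraries 1, 3 and 4. Of 20 Toll-like receptor and adaptor genes 7 rose and 8 fell, and after scaling 14 rose and 4 fell. Beside the 12.2% rising and 73.5% falling over all tested genes in RPKM, this list too lay toward rising. Cd14 and Tlr2 rose by 3.30 and 2.09. Ticam2, the adaptor that bridges TLR4 to TRIF, fell by 1.88 in RPKM and by 1.06 after scaling, and Irak4, a kinase of the MyD88 arm, fell by 1.52 and 0.71. Ticam2 had 33.8 RPKM in the library labelled 2 h replicate 4, above every no LPS library. Of 17 MAP kinase cascade genes 4 rose and 10 fell, and after scaling 9 rose and 3 fell; Mapkapk2, the p38-activated kinase that stabilises cytokine mRNA, rose by 2.27.

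In the interferon arm the ligand, some of its factors and its target genes rose. Ifnb1 had 912, 0.168, 935 and 32.3 RPKM in dKO 2 h libraries 1 to 4, against 0.313, 692, 0.133 and 0.197 RPKM in dKO no LPS libraries 1 to 4. The 2 h libraries 1 and 3 lay close together, and 2 h library 4 was far below them. Without the 3 libraries, Ifnb1 averaged 924 ± 16.4 RPKM at 2 h (SD, n = 2) and 0.214 ± 0.0912 RPKM with no LPS (SD, n = 3), a log2 change of 10.35 ± 0.12 (adjusted p = 3.12e-09). Of the 10 type I interferon genes listed, only Ifnb1 and Ifna4 passed the filter. It asks for 4 of the 8 labelled libraries, so it can also drop genes read only after LPS. Both Ifnb1 and Ifna4 lay below RPKM 1 in no LPS libraries 1, 3 and 4. They could pass only through the other libraries, so their rise was partly built in. Ifna9, Ifna2 and Ifna5 did not pass. They averaged 7.70, 3.46 and 2.03 RPKM in dKO 2 h libraries 1 and 3, and 0 in dKO no LPS libraries 1, 3 and 4. Ifna1, Ifna6, Ifna11, Ifna12 and Ifna13 averaged at most 0.170 RPKM at 2 h. Ifna4 rose by 4.76, though reads of Ifna genes may be split among near-identical copies. Of the receptor's genes, Ifnar2 rose by 0.29 and Ifnar1 was not called at -0.08, while after scaling both rose. Of 15 interferon regulatory factor and STAT genes 9 rose and 4 fell, and after scaling 12 rose and 1 fell. Irf1 and Irf7, factors that carry interferon signals onward, rose by 3.51 and 4.11, while Irf3, which acts without new synthesis, fell by 1.20 in RPKM and by 0.37 after scaling. In the library labelled 2 h replicate 4, Irf7 stood at 581 RPKM, against 76.5 and 100 RPKM in 2 h libraries 1 and 3.

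Of 25 interferon-stimulated effector genes, 24 passed the filter and all 24 rose in both scalings, with a median of 3.71. As labelled, none was called (0) in the 8-library comparison. All 24 were called higher in the fit of all 32 libraries, whose shared spread understates that of the labelled dKO groups. Isg15, a ubiquitin-like modifier, had 1451, 5.49, 1538 and 1692 RPKM in dKO 2 h libraries 1 to 4, against 9.07, 432, 7.80 and 7.03 RPKM in dKO no LPS libraries 1 to 4. Rsad2, the gene of viperin, rose by 9.79, Ifit1, which binds foreign RNA, by 8.89 and Cmpk2, a mitochondrial nucleotide kinase, by 8.55. Ifih1, the RNA sensor MDA5, rose by 6.07, and Oasl1, a relative of the oligoadenylate synthetases, by 8.66. Of 9 guanylate binding proteins and immunity GTPases 8 rose, and after scaling all 9. Gbp5 rose by 4.80 and Irgm1 by 3.89; members of these families share sequence, so their reads may be split.

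All 11 costimulatory and maturation genes tested rose in both scalings, with a median of 2.65. Cd69, an early activation receptor, had 287 and 360 RPKM in dKO 2 h libraries 1 and 3, against 5.58, 4.96 and 5.4 RPKM in dKO no LPS libraries 1, 3 and 4. Cd80, the ligand of CD28, rose by 2.66, Icam1, an adhesion molecule of the synapse, by 2.14 and Cd200, an inhibitory ligand, by 3.67. Antigen presentation genes showed smaller changes at 2 h. Of 15 MHC class I and peptide-loading genes 5 rose and 5 fell in RPKM, with a median of 0.13, while after scaling 14 rose and none fell (0). Over all tested genes 12.2% rose and 73.5% fell in RPKM. Tapbp, the tapasin gene, rose by 1.06 and its relative Tapbpl by 0.71. Of 13 MHC class II genes none rose (0) and 5 fell in RPKM, while after scaling 10 rose and 1 fell. The one lower in both was March1, the ligase that removes MHC class II and CD86 from the surface of immature cells, with 10.0 and 8.35 RPKM in dKO 2 h libraries 1 and 3, against 27.8, 26.0 and 27.4 RPKM in dKO no LPS libraries 1, 3 and 4.

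Smaller lists showed further single genes with large rises. Of 9 genes of arginine metabolism and nitric oxide 5 rose and 2 fell, and after scaling 7 rose and none fell (0). Nos2, the inducible nitric oxide synthase, had 47.5, 9.82, 61.8 and 737 RPKM in dKO 2 h libraries 1 to 4, against 9.16, 12.1, 6.93 and 3.50 RPKM in dKO no LPS libraries 1 to 4. Its value in 2 h library 4 stood far above the rest. Gch1, which makes the cofactor of that enzyme, rose by 1.71. Of 10 inflammasome sensors and caspases 4 rose and 4 fell, and after scaling 8 rose and 2 fell; Casp4, listed here for the mouse caspase that senses cytoplasmic LPS, rose by 2.27 and Nlrp3 by 1.52. Of 13 NRF2 and redox genes 5 rose and 7 fell, and after scaling 7 rose and 1 fell. Slc7a11, the cystine transporter, rose by 2.74 and Txnrd1, a thioredoxin reductase, by 1.71. Of 14 BCL2 family genes 8 rose and 6 fell, and after scaling 9 rose and 3 fell. Bcl2l1, the survival gene of BCL-XL, rose by 2.22, and Bid, a death-promoting member, fell by 2.09 in RPKM and by 1.31 after scaling.

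The 10 lowest genes by the same rule were Adra2a, Tifab, Lpar6, Gpr146, B3gnt7, Tmem86a, Cebpa, Cnr2, Arl11 and Lyl1, with log2 changes of -4.71 to -3.94 in RPKM and -4.0 to -3.19 after scaling. Several encode receptors at the cell surface: an adrenergic receptor (Adra2a), a lysophosphatidic acid receptor (Lpar6), an orphan receptor (Gpr146) and a cannabinoid receptor (Cnr2). Adra2a had 1.16, 28.3, 0.924 and 3.55 RPKM in dKO 2 h libraries 1 to 4, against 34.1, 4.01, 41.0 and 44.6 RPKM in dKO no LPS libraries 1 to 4. The 2 h library 2 lay near the unstimulated level and no LPS library 2 near the stimulated one. Cebpa, a master factor of myeloid cells, had 1.84, 36.3, 2.21 and 0.915 RPKM at 2 h, against 35.6, 5.89, 42.2 and 43.5 RPKM with no LPS. It averaged 2.02 ± 0.266 RPKM at 2 h (SD, n = 2) and 40.4 ± 4.26 RPKM with no LPS (SD, n = 3) without the 3 libraries.

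Of 17 CEBP, KLF and ID factors 5 rose and 11 fell, and after scaling 6 rose and 9 fell. Of all tested genes 73.5% fell in RPKM and 34.2% after scaling. Klf13 fell by 2.02 in RPKM and by 1.18 after scaling. Of 7 lineage and repressor factors 4 rose and 2 fell, and after scaling 5 rose and 1 fell; Runx1, a factor of blood cell development, fell by 2.17 in RPKM and by 1.38 after scaling, and Zeb2 rose by 1.07. Of 28 cell cycle genes 5 rose and 22 fell, with a median of -1.39, and after scaling 6 rose and 15 fell. The share that fell in RPKM lies near the 73.5% of all tested genes, whose median was -0.80. The D-type cyclins went opposite ways: Ccnd1 fell by 2.02 in RPKM and by 1.20 after scaling, and Ccnd2 had 91.6 and 128 RPKM in dKO 2 h libraries 1 and 3, against 22, 21.1 and 22.4 RPKM in dKO no LPS libraries 1, 3 and 4. Mcm3, part of the replication helicase, fell by 1.5 in RPKM and by 0.68 after scaling. Of 11 CDK inhibitors and p53 targets 5 rose and 5 fell, and after scaling 6 rose and 2 fell; Cdkn1a, the gene of p21, rose by 1.82, and Gadd45g fell by 2.80 in RPKM and by 2.05 after scaling.

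Of 19 cholesterol synthesis genes 5 rose and 14 fell in RPKM, and after scaling 8 rose and 8 fell. Over all tested genes 73.5% fell in RPKM and 34.2% after scaling, so the falls of this list in RPKM lie near the general share. Lss, an enzyme of the middle of the pathway, fell by 2.48 in RPKM and by 1.75 after scaling. Of 8 genes of cholesterol efflux and the LXR receptors none rose (0) and 7 fell, and after scaling 1 rose and 3 fell. Abcg1, which exports cholesterol, had 9.99, 71.5, 9.12 and 49.9 RPKM in dKO 2 h libraries 1 to 4, against 72.8, 23.3, 70.6 and 78.8 RPKM in dKO no LPS libraries 1 to 4. Its value in 2 h library 4 lay between the 2 levels. Of 16 genes of the unfolded protein response and tRNA synthetases 1 rose and 15 fell, but after scaling 3 rose and 3 fell. Xbp1 and Herpud1, targets of endoplasmic reticulum stress, fell by 1.62 and 1.97 in RPKM and by 0.76 and 1.12 after scaling.

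For the large housekeeping lists the direction depended on the scaling. Of 33 proteasome genes 3 rose and 22 fell in RPKM, with a median of -0.37, but after scaling 28 rose and none fell (0), with a median of 0.48. Of 21 respiratory chain genes none rose (0) and all 21 fell in RPKM, and after scaling 13 rose and 1 fell. Of 28 lysosomal and phagocytic genes 2 rose and 19 fell in RPKM, and after scaling 20 rose and 1 fell; Npc1, which moves cholesterol out of lysosomes, fell in both, by 1.36 and 0.51. Of 21 glycolysis and hypoxia genes 2 rose and 13 fell in RPKM, and after scaling 11 rose and 1 fell; Pfkp, a phosphofructokinase, rose in both, by 1.36 and 2.22. Relative to the median of all genes, -0.80, the typical gene of the proteasome, respiratory chain and lysosome lists lay slightly high. Of the 6 catalytic proteasome subunits, 1 rose and 2 fell in RPKM, and after scaling 5 rose. Psmb6, the constitutive counterpart of the immunoproteasome subunit encoded by Psmb9, had 112 and 115 RPKM in dKO 2 h libraries 1 and 3, against 79.8, 83.0 and 84.1 RPKM in dKO no LPS libraries 1, 3 and 4. The residual signal of the deleted genes showed the same dependence: Psmb8 changed by 0.19 ± 0.11 in RPKM (not called) and 0.96 after scaling, and Psmb10 by -0.42 in RPKM and 0.37 after scaling.

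**Figure D4:**
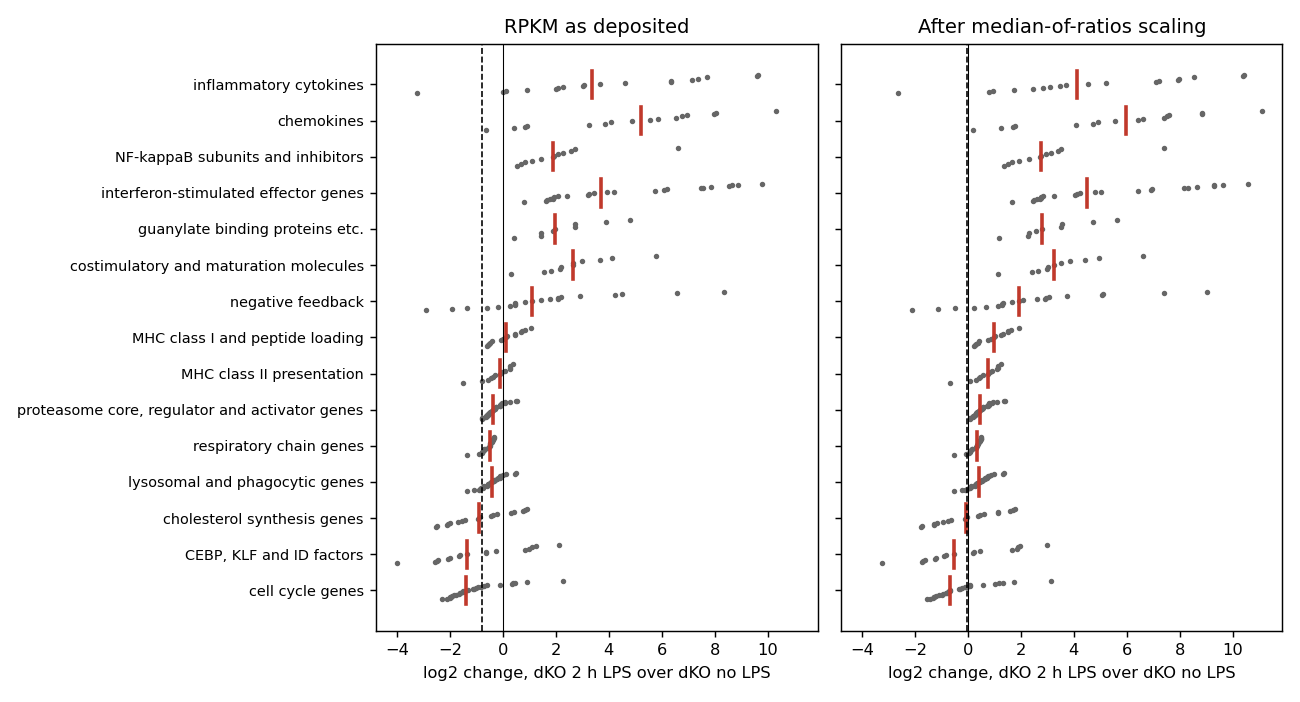
Log2 change, dKO 2 h LPS over dKO no LPS without the 3 libraries (horizontal axis), of each tested member (points) of 15 gene lists, in RPKM as deposited (left) and after median-of-ratios scaling (right). Red bars are list medians and dashed lines the medians of all genes, -0.80 and -0.01. The medians of the proteasome, respiratory chain and lysosome lists lie below 0 on the left and above it on the right, while those of the cytokine, chemokine, NF-κB and interferon-stimulated lists lie above 0 in both.

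The entries of 3 microRNA hairpins were among the induced entries, and the mature sequences they encode are shown to make clear which of them share a target-recognition seed (bases 2 to 8, in capitals; RefSeq, GRCm38.p6).
miR-155-5p: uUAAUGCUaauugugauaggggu
miR-221-3p: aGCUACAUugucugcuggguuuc
miR-222-3p: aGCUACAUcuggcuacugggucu

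The miR-221-3p and miR-222-3p sequences share the seed GCUACAU and are neighbours on chromosome X, while miR-155-5p has its own. Mir155 had 45.4 and 44.9 RPKM in dKO 2 h libraries 1 and 3, against 2.02, 0.846 and 1.36 RPKM in dKO no LPS libraries 1, 3 and 4, a log2 change of 4.63 ± 0.23. Mir221 rose by 5.19 and Mir222 by 3.42. Libraries of this kind read long RNA, so these values stand for longer transcripts read over the short hairpin and not for the mature microRNAs. Of 33 microRNA entries tested 7 rose and 10 fell, and after scaling 15 rose and 4 fell.

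The label of the cells was checked against marker genes without the 3 libraries. Itgax, the gene of the dendritic cell integrin CD11c, had 361 and 379 RPKM in dKO 2 h libraries 1 and 3, against 518, 521 and 528 RPKM in dKO no LPS libraries 1, 3 and 4, and Flt3, the growth factor receptor of dendritic cells outside such cultures, did not pass the filter. Of 8 conventional dendritic cell markers tested, 1 rose and 6 fell in RPKM, and after scaling 5 rose and 1 fell. Of 11 macrophage markers tested, 1 rose and 6 fell in RPKM, and after scaling 4 rose and 3 fell; their summed RPKM was 975 to 1027 in dKO 2 h libraries and 1440 to 1580 in dKO no LPS libraries. All 3 eosinophil markers tested rose in both scalings, their sum being 370 to 472 RPKM at 2 h and 192 to 265 RPKM with no LPS. Of 7 neutrophil markers 4 rose, and after scaling all 7, with sums of 351 to 396 RPKM at 2 h and 206 to 274 RPKM with no LPS. Of 5 plasmacytoid dendritic cell markers only Bst2 and Tcf4 passed the filter, and both rose. Bst2 is also on the interferon-stimulated list. Siglech, Ly6d and Ccr9 did not pass, with group means of at most 0.344 RPKM. Neither of the 2 mast cell and basophil markers tested was called in RPKM, while 1 rose after scaling. No marker of B, T, NK, stromal or erythroid cells passed the filter (0). The part of cell composition in the changes above was not tested, and in bulk RNA fewer cells of a type and less RNA per cell cannot be told apart.

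The same 2 h response was set beside that of WT cells by the difference of the 2 log2 changes. As labelled, 1 gene was called (0.00958%), and 857 (8.21%) had an unadjusted p below 0.05. That gene was Rhob, a small GTPase, whose response was smaller in dKO by 2.14 ± 0.30 log2 units (adjusted p = 0.028). Leaving out dKO no LPS library 1, 3 or 4, or dKO 2 h library 4, took its adjusted p to between 0.0503 and 0.0974. In the smaller comparison 260 genes had a higher response in dKO (2.49%) and 269 a lower one (2.58%). One fit of all group means, still holding 2 other dKO libraries whose profiles match another time, called only 11 and 21, and the same fit without those 2, chosen after seeing the data, called 284 and 309. The 3 libraries were left out by their likeness to WT, so the closeness of the genotypes in what remains is partly built in.

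The direction of the interferon-stimulated genes turned between the 2 comparisons. As labelled none of the 24 was called (0), 10 had a positive difference, and their median was -0.22, against 0.26 over all tested genes; without dKO 2 h library 4 it was -0.82, and without dKO 2 h library 2 it was 0.75. Without the 3 libraries 16 of the 24 had a larger log2 response in dKO and none a smaller one (0), with a median of 0.86, against -0.01 over all tested genes. The values that follow are those without the 3 libraries. The levels show where the larger fold lies. Without LPS, all 24 were lower in each of dKO libraries 1, 3 and 4 than in every WT library, which 25% of all tested genes were. The median ratio of the dKO mean to the WT mean over the 24 was 0.446 with no LPS, against 0.96 over all genes. At 2 h that ratio was 0.851, against 0.939 over all genes; 4 of the 24 were higher in both dKO libraries than in every WT library and 10 were lower, which 14.8% and 30.4% of all tested genes were.

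Isg15 averaged 1494 ± 61.5 RPKM in dKO at 2 h (SD, n = 2) and 1457 ± 47.7 RPKM in WT at 2 h (SD, n = 4). With no LPS it averaged 7.97 ± 1.03 RPKM in dKO (SD, n = 3) and 25.7 ± 3.14 RPKM in WT (SD, n = 4). The levels at 2 h differ by less than 1 SD and those at rest do not overlap; its response was larger in dKO by 1.66 ± 0.14 log2 units (adjusted p = 1.99e-05). Ifit1 was alike, with 840 ± 121 RPKM in dKO and 824 ± 26.4 RPKM in WT at 2 h, and with 1.26 ± 0.11 RPKM in dKO and 4.86 ± 0.462 RPKM in WT with no LPS. Rsad2 differed at both times, with 2456 ± 276 RPKM in dKO and 1511 ± 108 RPKM in WT at 2 h, and 2.30 ± 0.534 RPKM in dKO and 4.57 ± 0.314 RPKM in WT with no LPS. Cmpk2 and Ifih1 had larger responses in dKO by 1.57 and 0.93 log2 units. Ifnb1 itself did not pass the test, with a difference of 0.53 ± 0.20 (adjusted p = 0.156), and neither did Tnf (0.49 ± 0.16, adjusted p = 0.0982), Il6 (0.23 ± 0.31) or Il12b (0.34 ± 0.36). In the fit of all group means that keeps the 2 other libraries, 1 of the 24 kept its call, and without them 19 were called.

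**Figure D5:**
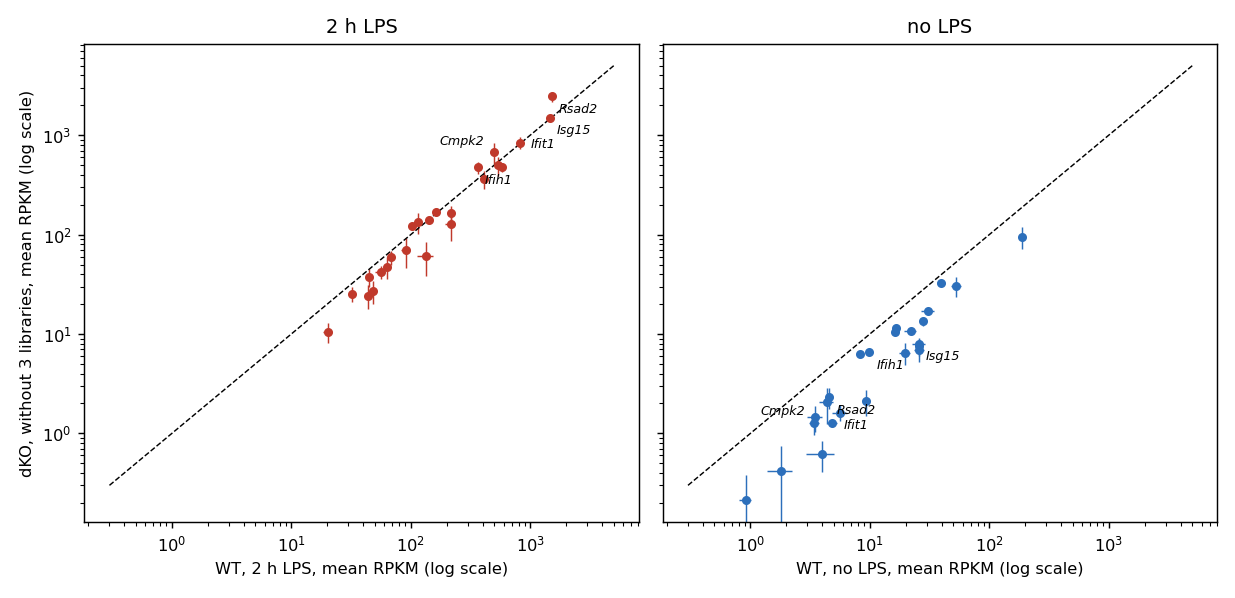
Mean RPKM of the 24 interferon-stimulated genes in dKO without the 3 libraries (vertical axis, log scale) against WT (horizontal axis, log scale), at 2 h of LPS (left) and with no LPS (right). Bars are SD and the dashed line marks equal levels. Isg15 and Ifit1 lie on the line on the left, and all 24 genes lie below it on the right.

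The 5 largest positive differences named by the rule were Il33, Id3, Gem, Rtp4 and Rnase6 (2.23 to 1.76 log2 units). Il33, an alarmin cytokine, averaged 17.5 RPKM in dKO and 6.37 RPKM in WT at 2 h, with 0.226 RPKM in dKO and 0.796 RPKM in WT with no LPS. Id3, an inhibitor of helix-loop-helix factors, averaged 3.07 RPKM in dKO and 0.256 RPKM in WT at 2 h, with 1.06 RPKM in dKO and 0.804 RPKM in WT with no LPS. It passed the filter, which used the dKO libraries alone, while its WT means lie below the filter's RPKM of 1, so its difference rests on low values. Among the largest negative ones were Mul1, Zfp933, Rhob and Treml1 (-1.99 to -1.5). Mul1, a mitochondrial ubiquitin ligase, averaged 3.55 RPKM in dKO and 17.6 RPKM in WT at 2 h, with 6.06 RPKM in dKO and 6.88 RPKM in WT with no LPS. Rhob averaged 65.5 RPKM in dKO and 142 RPKM in WT at 2 h, with 32.8 RPKM in dKO and 22.9 RPKM in WT with no LPS. Its WT values lay between 123 and 167 RPKM at 2 h, above all 4 labelled dKO libraries, the highest of which had 67.7 RPKM.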

How the data were processed

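Total RNA of 32 libraries was sequenced, 4 per genotype and time. The authors deposited, for each library, a gene list with positions on build mm9, an RPKM value and a second whole-number signal. CASAVA 1.8.2 and mm9 are named in the submitters' processing notes; the aligner settings and annotation release are not given in the sources used here. The deposited signal carries no header; its values behave as bases aligned to each gene, and it was used only as a coverage measure of depth (1.42 to 1.84 Gb in the 8 dKO libraries). RPKM was the unit tested, since read counts were not used here. Strand is not stated, so overlapping and antisense genes cannot be separated.

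The filter kept the 10442 genes that reached RPKM 1 in 4 or more of the 8 dKO libraries, and 92 spike-in entries were left out. Groups came from the sample labels. limma 3.58.1 in R 4.3.3, with an intensity trend and Benjamini-Hochberg adjustment over all kept genes, was run on log2(RPKM + 0.5), for the labelled groups and without 3 libraries, each on its own libraries. The difference of responses was the interaction of genotype and LPS over 16 libraries, or 13 without the 3. The fits were tested on simulated data whose spread was that of the 5 libraries kept. That spread lacks the 3 libraries left out, so the simulation cannot speak for the fit as labelled. Promoter and microRNA sequences are from RefSeq tables on GRCm38.p6, matched by symbol or a synonym with 1 match in the table (8383 of 10442 genes, 80.3%), and no position was carried between builds. Python 3.11.15 and pandas 2.3.3 handled sequences, and matplotlib 3.10.9 drew the figures.

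The members, the 43 lists (597 genes, 520 of them tested), the 3 libraries and the rules were chosen with earlier results of these data known. Genes named in the text were the called ones without overlap between groups that lay at the top 10 and bottom 10 by log2 change in each dKO comparison, the 5 highest and 5 lowest differences between genotypes, up to 4 called members of a list by smallest adjusted p, 13 genes listed by name, and members a statement needed; uncharacterised loci were passed over, and some genes that meet these rules are not reported here. Lists are described by counts and medians, with no test. No label pairs the 2 h and no LPS libraries, so they were not paired by number. Deviations from the group means gave r from -0.726 to -0.164 for same-numbered libraries and from -0.612 to 0.721 for the others. The 3 libraries whose profiles fit other times shift those means, so this r cannot say whether the numbers pair.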

Additional observations from a re-analysis of the deposited data

Results flagged for a closer look

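In all, 3 libraries stood apart in at least 1 of the genes named above. Each group of 4 labelled libraries was examined on the log2(RPKM + 0.5) scale. The measure was Dixon's ratio of the end gap to the range, at its 95% critical value. The library labelled dKO 2 h LPS replicate 2 stood apart in 34 of 106 genes, the one labelled dKO 2 h LPS replicate 4 in 1, and the one labelled dKO no LPS replicate 2 in 64. Chance alone marks about 1 in 20 groups, and genes of one library are not independent. Most of the 106 genes were named by calls made without these 3 libraries, so that rate is no yardstick for them. The counts are therefore partly built in and are not separate evidence that the 3 libraries differ.

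The response to LPS differed between dKO and WT cells for 14 genes described above in the comparison with WT, by the interaction of genotype and LPS in limma without the 3 libraries. The response was larger in dKO by 2.23 log2 units for Il33, 2.01 for Id3, 1.99 for Gem, 1.79 for Rtp4, 1.76 for Rnase6, 1.66 for Isg15, 1.63 for Ifit1, 1.57 for Rsad2, 1.57 for Cmpk2 and 0.93 for Ifih1. The difference was -1.99 for Mul1, -1.79 for Zfp933, -1.61 for Rhob and -1.5 for Treml1. For Rhob it was -2.14 as labelled, where no other gene passed.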

How the results depend on the processing

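As labelled, the 0 and 0 calls held under both other pseudocounts, both other filters, both other scalings, no intensity trend and the replicate block. They became 920 higher and 5859 lower in one fit of 8 group means, whose shared spread understates that of the labelled dKO groups. The counts ranged from 0 to 788 higher and from 0 to 5366 lower when 1 library was left out. Without the 3 libraries, the counts became 3627 and 3571 after median-of-ratios scaling and 2723 and 4132 after quantile normalization. Other settings stayed within 1.5 times of 1275 and 7674, including 963 and 6740 with dKO 2 h replicate 4 kept, 1292 and 7701 with the replicate block, and 1118 to 1291 and 7265 to 7618 with 1 more library left out. Where that left 1 library at 2 h, its spread was taken to be that of the no LPS group.

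In signs, Fos stood at 0.058 and Itgax at 0.36 after median-of-ratios scaling, and Psmb10 at 0.37 after median-of-ratios scaling, 0.46 after quantile normalization and 0.020 with dKO 2 h replicate 4 kept. For the difference between dKO and WT as labelled, lower calls numbered 3 after quantile normalization, 0 with the replicate block and 0 with no intensity trend. With no filter there were 17 higher and 8 lower, in one fit of 8 group means 8 and 13, and with 1 library left out 0 to 2 and 0 to 3. Without the 3 libraries that one fit gave 11 and 21. The cause of these moves was not tested. Summed aligned bases differ little between groups, and read counts behind each RPKM are unknown, so no counting interval is given.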

Other observations

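Among the genes named for a difference between the dKO and WT responses, Gem, Id3, Mul1 and Zfp933 lie on chromosome 4 (mm9). Over all tested genes, 49 of 661 on that chromosome were called for the difference without the 3 libraries, 7.41%, against 5.07% of all genes, and chromosome 12 followed with 6.65%. This pattern was noticed after the values were seen and was not tested.

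Ccl5, Irf7, Nos2 and Cd40 were higher in the library labelled dKO 2 h LPS replicate 4 than in 2 h libraries 1 and 3, while Ifnb1, Ccl4 and Tnfsf9 were lower there. Cd40 had 436 RPKM in that library, against 83.7 and 139 RPKM in 2 h libraries 1 and 3. Ccl4 had 1484 RPKM there, against 8741 and 7943 RPKM in 2 h libraries 1 and 3, and Tnfsf9 had 61.8 RPKM, against 293 and 262 RPKM.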
